A study of Mus musculus with 8 samples.

Results

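Serine proteases (kallikreins and matriptase) and members of protease inhibitor families, not all of which act on these proteases, were followed in whole skin of newborn FVB mice of 4 genotypes. The members were all probe sets whose only annotated symbol was a kallikrein (Klk and a number), a clade B serpin (Serpinb and a number), a Kazal inhibitor (Spink and a number), a stefin (Stfa and a number), or one of Csta, Cstb, Cst3, Cst6, Slpi, Tmprss11, St14, Spint1 and Spint2. The rule found 48 of the 22626 probe sets tested, for 39 of the 12393 genes named by a single symbol: 19 probe sets of 16 protease genes and 29 probe sets of 23 inhibitor genes. The proteases were 12 probe sets of 9 glandular kallikreins (Klk1 and the Klk1b genes), 6 of 6 other kallikreins (Klk4, Klk6, Klk7, Klk8, Klk10 and Klk11) and 1 of matriptase (St14). The inhibitors were 18 probe sets of 14 clade B serpins, 5 of 4 cystatins and stefins (Cst3, Cst6, Cstb and Stfa3), 3 of the 2 Kunitz inhibitors Spint1 and Spint2, 2 of the Kazal inhibitors Spink1 and Spink4, and 1 of Slpi. The symbols Csta and Tmprss11 matched 0 probe sets each. The genes Klk5, Klk13, Klk14, Spink5, Serpinb12 and Serpinb3a to Serpinb3d were not analysed here, and 3 probe sets that carry several symbols of these families were left out.

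In the outer epidermis, kallikreins are made as inactive precursors by keratinocytes of the granular layer and secreted into the space between cells, where they cut the corneodesmosomes that hold the cornified layer together. Matriptase is a membrane protease that starts protease activation in epithelia and is held in check by the Kunitz inhibitors. Clade B serpins are mostly intracellular suicide inhibitors that are cut by a target protease and trap it, and cystatins and stefins block cysteine proteases such as the cathepsins. The balance of epidermal proteases and their inhibitors helps set how fast the cornified layer is shed and how well it holds water.

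The groups were skin labelled pRb+/+, skin without pRb alone (pRb-/-;p107+/+), skin without p107 alone (pRb+/+;p107-/-) and skin without both (pRb-/-;p107-/-). Here pRb is the retinoblastoma protein and p107 its relative, both partners of E2F factors in the control of S phase entry. Each genotype had 2 Affymetrix arrays, each hybridised with a pool of RNA from 3 animals. The p107 status of the pRb+/+ arrays is not labelled, and no label says by which promoter or in which cells pRb was deleted. In this mouse model the deletion is known to be conditional and driven by a basal keratin promoter, so that dermal cells keep the gene, but which cells lacked it was not measured here. The labels number the 2 arrays of a genotype without saying whether they hold separate pools, so p-values measure the spread between these arrays, which may be technical. Each value is a z-score: every probe set was standardized over the 8 arrays. A difference of 1 is thus 1 SD of that probe set, levels of different genes cannot be compared, and no fold change can be read. Adjusted p-values come from a linear model in limma without moderation, corrected by the Benjamini-Hochberg method for 22626 probe sets, and calls were made below 0.05.

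Some features of the whole series touch all comparisons. The spike-in poly-A controls (24 probe sets) averaged 0.19 to 1.38 on the pRb+/+ and pRb-/-;p107+/+ arrays and -0.96 to -0.55 on the 4 p107-/- arrays. The Gapdh controls averaged -1.52 and -1.47 on the pRb+/+ arrays and -0.03 to 0.84 on the others. The beta-actin controls (3 probe sets) averaged -1.08 and -1 without both proteins, 1.21 and 1.41 without pRb alone, and -0.86 to 0.3 on the other arrays. The hybridization controls (18 probe sets) averaged 2.05 on the second pRb+/+ array and -0.8 to 0.37 on the other 7. The probe set of Rb1 averaged -1.42 ± 0.2 (SD, n = 2 arrays) without both proteins and 1.14 ± 0.1 in pRb+/+ skin. It averaged 0.07 ± 0.41 in skin labelled as lacking pRb alone, which was not separated from the 0.21 ± 0.26 of skin labelled as lacking p107 alone. Of the 2 Rbl1 probe sets, the gene of p107, 1 averaged -1.37 ± 0.21 without p107 alone but 0 ± 0.44 without both proteins, near the 0.14 ± 0.09 of pRb+/+ skin. The other averaged -1.33 ± 0.29, -0.16 ± 0.05 and 0.8 ± 0.32 there. Where these probe sets lie relative to the deleted parts is not given, so they do not settle the labels, and the genotypes below are those the labels give. The median difference over all probe sets was 0.35 for p107 loss where pRb was kept and -0.33 for pRb loss where p107 was lost. With array medians subtracted these medians were 0.04 and -0.05, so differences of members are read beside them. The part of the control differences in the member values was not tested.

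Among the 4 genotypes, pRb-/-;p107-/- skin held the highest mean for 22 of the 48 member probe sets, 9 of 19 for proteases and 13 of 29 for inhibitors. In 11 of 48 (22.9%) both pRb-/-;p107-/- arrays lay above all other 6 arrays, against 6.95% of all probe sets. These were 4 proteases, Klk6, Klk7, Klk8 and Klk11, and 7 inhibitors, Serpinb2, Serpinb5 (1 of its 3 probe sets), Serpinb6a, Serpinb6c, Serpinb7, Serpinb8 and Serpinb11. Both pRb-/-;p107-/- arrays lay below all others in 2 of 48, Spint1 and 1 of the 2 Serpinb9c probe sets, against 11.4% of all probe sets. The F test over the 4 genotypes passed for 2 of 48, Spint1 (limma, adjusted p = 0.0489) and Serpinb11 (adjusted p = 0.0353), against 1.28% of all probe sets. At an unadjusted p below 0.05 it passed for 19 of 48 (39.6%), against 21.4%. Both pRb+/+ arrays lay above the other 6 in 4 of 48 (7.28% of all probe sets), namely St14, Spint1 and 1 probe set each of Spint2 and Cstb, and below them in 6 of 48 (10.3% of all).

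**Figure D1:**
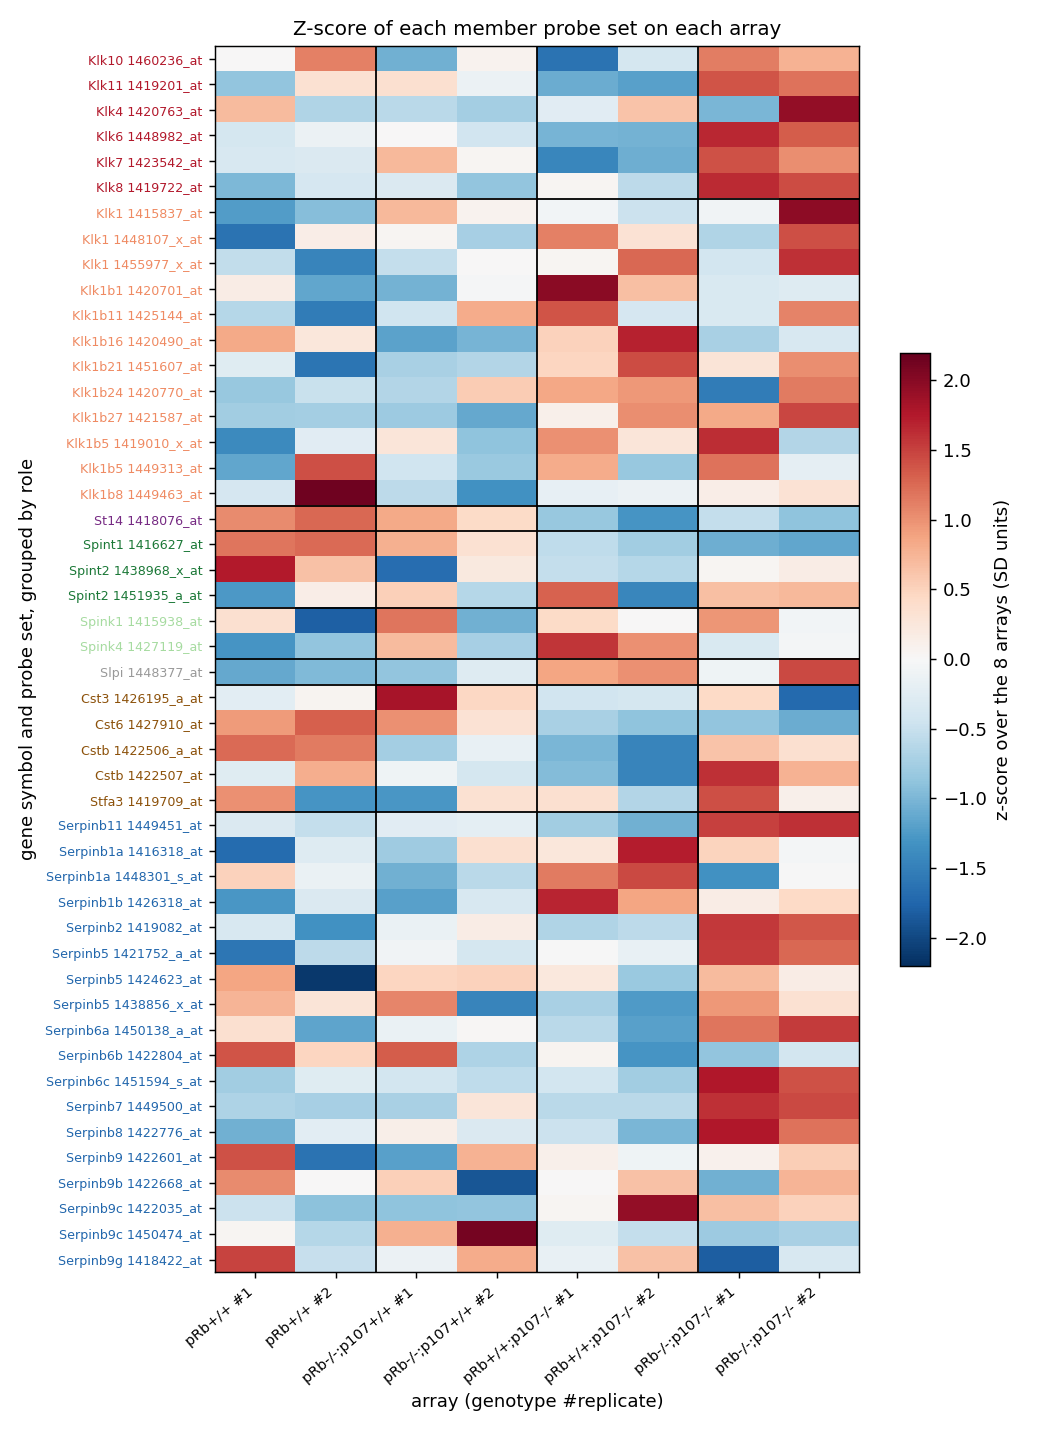
Z-scores (colour, SD units over the 8 arrays) of the 48 member probe sets in rows, grouped by role, on the 8 arrays in columns, 2 for each genotype. Klk6, Klk7, Klk8, Klk11 and a block of clade B serpins are red on both pRb-/-;p107-/- arrays on the right, and St14, Spint1 and Cst6 are blue on the 4 p107-/- arrays.

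The comparison of pRb-/-;p107-/- with pRb+/+ skin, which tests loss of both proteins, called 4 of 48 member probe sets (8.33%), against 2.94% of all probe sets. Klk6, Serpinb6c and Serpinb11 rose, where 1.41% of all probe sets rose, and Spint1 fell, where 1.54% of all fell. The median difference was 1.32 for the proteases (16 of 19 positive) and 0.92 for the inhibitors (19 of 29 positive), beside 0.1 over all probe sets (11836 of 22626 positive). At an unadjusted p below 0.05 there were 6 proteases and 10 inhibitors, together 33.3% of the members against 22.3% of all probe sets. For the inhibitors the median rested on the second pRb+/+ array, without which it was 0.11 beside 0.18 over all probe sets. For the proteases it was 0.75 beside 0.01 without the second pRb-/-;p107-/- array. The calls rest on the full set of arrays: with any 1 of the pRb+/+, pRb+/+;p107-/- or pRb-/-;p107-/- arrays left out 0 members were called, and without either pRb-/-;p107+/+ array 2 were, Spint1 (adjusted p = 0.0417) and Serpinb7 (adjusted p = 0.04). The moderated test of limma called 0.

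**Figure D2:**
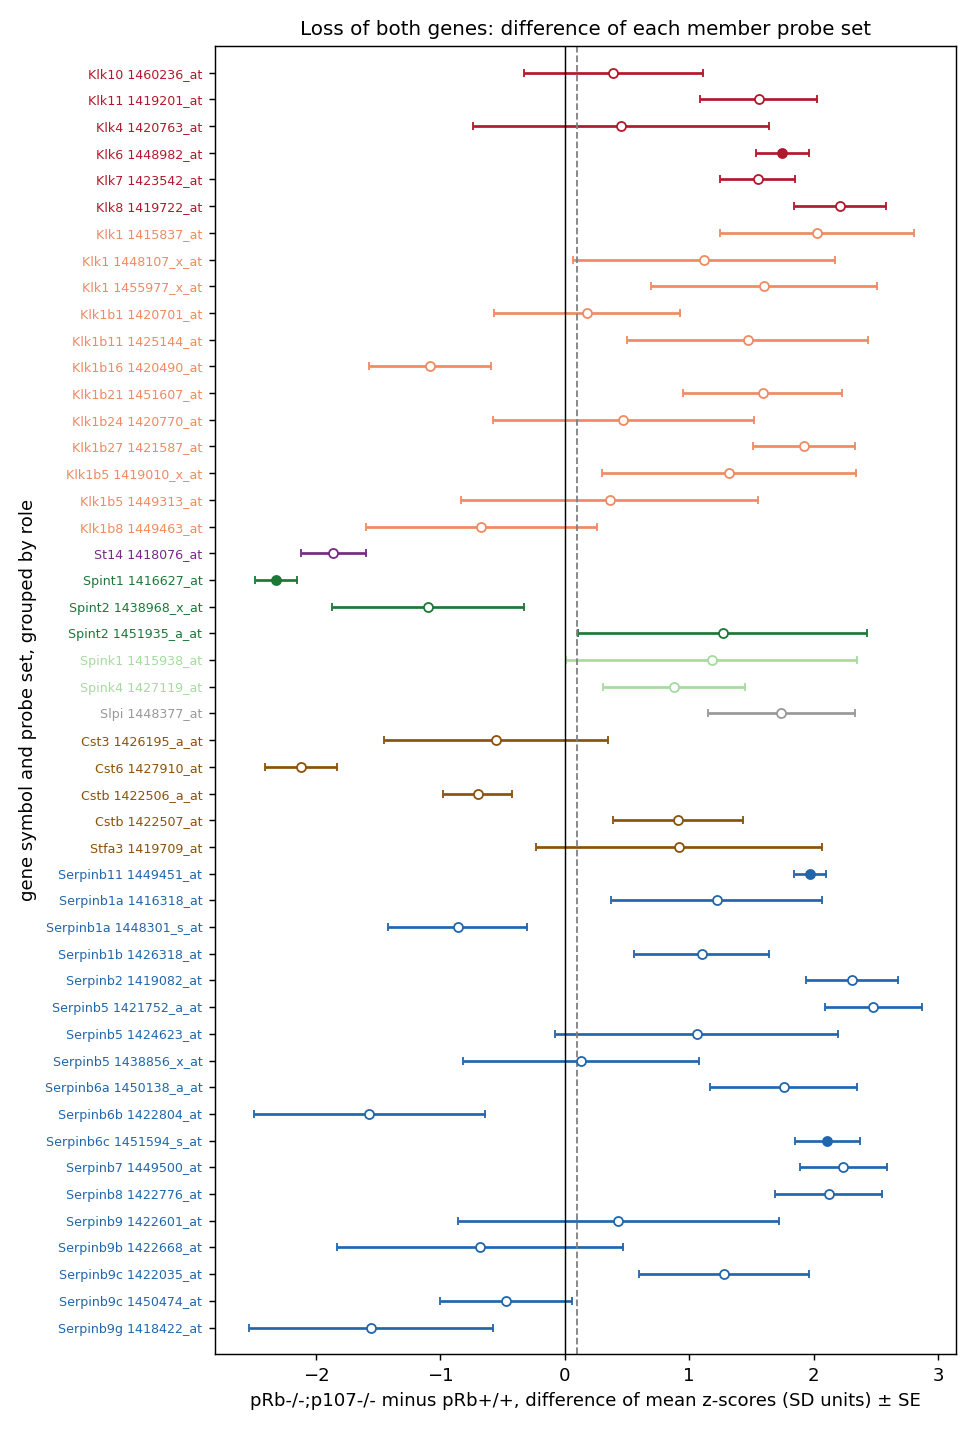
Difference of mean z-scores between pRb-/-;p107-/- and pRb+/+ skin (x axis, SD units) with its standard error from the linear model, for each of the 48 member probe sets (y axis). Filled points are the 4 with an adjusted p below 0.05, and the dashed line is the median of 0.1 over all probe sets.

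Among the proteases, the 6 kallikreins outside the Klk1 branch were all highest by mean in pRb-/-;p107-/- skin. Klk6, a trypsin-like kallikrein of skin and brain, had z-scores of -0.39 and -0.13 in pRb+/+ skin, 0.01 and -0.42 without pRb alone, -1.03 and -1.04 without p107 alone, and 1.66 and 1.33 without both. Both arrays that lack both proteins stood above all others, and both pRb+/+;p107-/- arrays stood below all others. It rose with loss of both by 1.75 ± 0.21 (SE, limma, adjusted p = 0.0461). The difference was 1.7 ± 0.21 for p107 loss where pRb was lost (adjusted p = 0.0622) and 2.53 ± 0.21 for pRb loss where p107 was lost (adjusted p = 0.0655), neither of which passed. All 3 comparisons share the arrays without both proteins, so their values are not independent.

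Klk7, a chymotrypsin-like protease that cuts corneodesmosin in the cornified layer, had values of -0.36 and -0.31 in pRb+/+ skin, 0.71 and 0.05 without pRb alone, -1.44 and -1.08 without p107 alone, and 1.4 and 1.03 without both. The genotypes formed 4 separate pairs with no overlap, highest without both proteins and lowest without p107 alone. Klk7 was also the one protease in which all 4 pRb-/- arrays lay above the other 4. Its difference for loss of both was 1.55 ± 0.3 and did not pass (limma, adjusted p = 0.0892).

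Klk8, also called neuropsin, a trypsin-like kallikrein of the granular layer, had values of -0.99 and -0.37 in pRb+/+ skin, -0.31 and -0.86 without pRb alone, 0.04 and -0.58 without p107 alone, and 1.64 and 1.43 without both. Only the pRb-/-;p107-/- pair stood apart, and the other 3 genotypes overlapped. Its difference for loss of both was 2.21 ± 0.37 (limma, adjusted p = 0.0752). Klk11, another trypsin-like kallikrein, had -0.87 and 0.34 in pRb+/+ skin, 0.36 and -0.13 without pRb alone, -1.09 and -1.2 without p107 alone, and 1.39 and 1.2 without both. As with Klk6, the p107-/- pair with pRb was lowest and the pair without both was highest, with a difference of 1.56 ± 0.47 for loss of both (adjusted p = 0.173).

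The other 2 of these kallikreins were less well separated. Klk10 had values of 0.01 and 1.11 in pRb+/+ skin, -1.06 and 0.08 without pRb alone, -1.63 and -0.39 without p107 alone, and 1.12 and 0.77 without both, so that a pRb+/+ array reached the level of the arrays without both proteins. Klk4, best known as a protease of tooth enamel, ranged from -1.01 to 1.93 within the pRb-/-;p107-/- pair alone, which covers the values of all other arrays.

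For 4 of these 6 kallikreins the difference with p107 loss had opposite signs in the pRb backgrounds, though no difference between the backgrounds passed. Where pRb was kept, p107 loss gave a negative difference for Klk6 (-0.77), Klk7 (-0.93), Klk10 (-1.57) and Klk11 (-0.88), against 0.17 for Klk4 and 0.41 for Klk8. The last 2 turned to -0.07 and -0.02 after quantile normalization of the arrays, and Klk4 to -0.14 with array medians subtracted. Where pRb was lost, p107 loss gave a positive difference for all 6 under the main and both other scalings, from 0.83 for Klk7 to 2.12 for Klk8. The interaction, which is the difference between these effects, was positive for all 6 with a median of 1.91, beside -0.44 over all probe sets (9067 of 22626 positive). It was largest for Klk10 (3 ± 1.02) and 2.48 ± 0.3 for Klk6. Of the 6, 5 had an unadjusted p below 0.05 and 0 passed after adjustment (limma, smallest adjusted p = 0.127 for Klk6), as 0% of all probe sets did. At an unadjusted p below 0.05 the share was 13.1% of all probe sets.

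**Figure D3:**
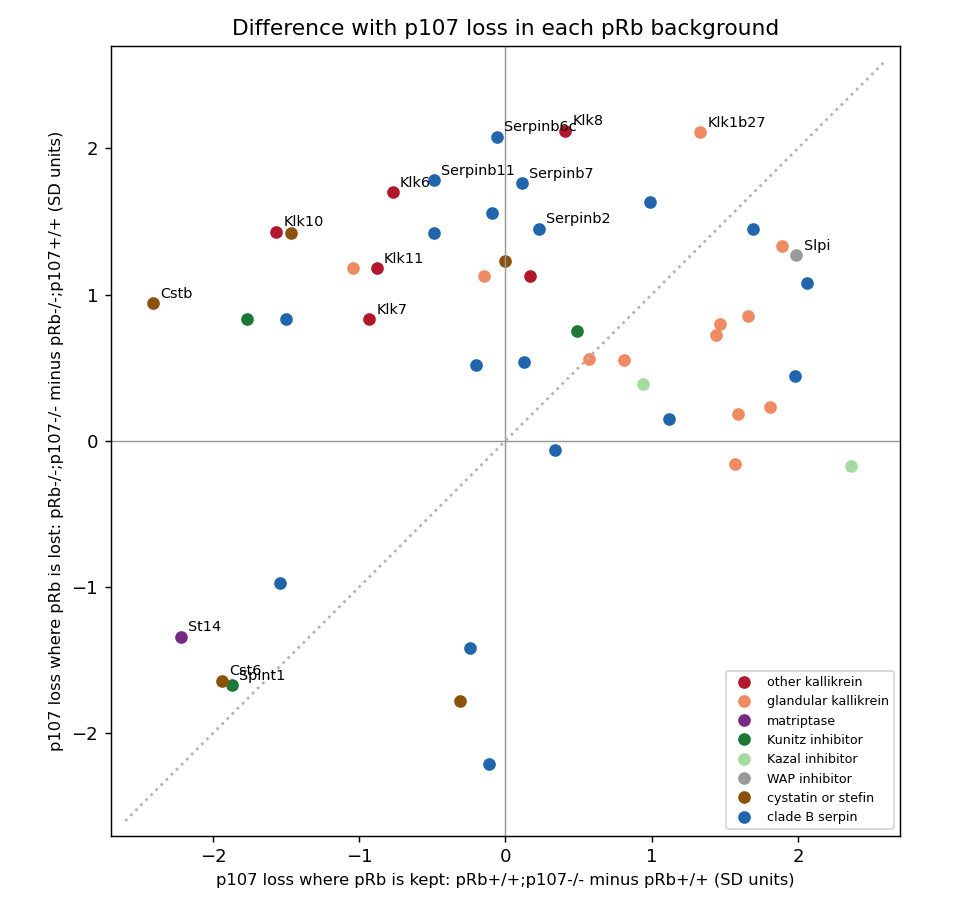
Difference of mean z-scores with p107 loss where pRb was kept (x axis) against that where pRb was lost (y axis), in SD units, for the 48 member probe sets coloured by role. The dotted line marks equal differences. Klk6, Klk7, Klk10 and Klk11 lie to the left of 0 and above it, and St14, Spint1 and Cst6 lie below 0 on both axes.

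The glandular kallikreins, which in mice are made mostly in the salivary gland and include processors of growth factors and kininogen, did not follow this order. Of their 12 probe sets 8 had the highest mean without p107 alone, 3 without both and 1 in pRb+/+ skin. For p107 loss where pRb was kept 10 of 12 were positive with a median of 1.45, beside 0.35 over all probe sets, and where pRb was lost 11 of 12 were positive with a median of 0.76, beside -0.1. None of the 12 passed in any comparison (limma, smallest adjusted p = 0.105, for Klk1b27 with loss of both), and at an unadjusted p below 0.05 there were 2, 1 and 1 for p107 loss with and without pRb and for loss of both, against 19.4%, 19.2% and 22.3% of all probe sets. These genes are near-identical copies, so their probe sets may share signal.

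Klk1b27 had the most regular pattern of them, with values of -0.77 and -0.75 in pRb+/+ skin, -0.8 and -1.12 without pRb alone, 0.11 and 1.03 without p107 alone, and 0.84 and 1.47 without both. All 4 p107-/- arrays lay above the other 4, as they did for Klk1b21 and for 7.51% of all probe sets. Klk1b16 went by pRb status instead: it had 0.83 and 0.25 in pRb+/+ skin, and 0.51 and 1.7 without p107 alone, against -1.18 and -1.02 without pRb alone, and -0.72 and -0.36 without both. It was the one protease with all 4 pRb-/- arrays below the others. The 3 probe sets of Klk1, tissue kallikrein itself, all had positive differences for loss of both, from 1.12 to 2.03, but the pRb-/-;p107-/- arrays lay apart from each other, at -0.07 and 1.97 in the first of them. Klk1b21 had -0.27 and -1.6 in pRb+/+ skin, -0.71 and -0.65 without pRb alone, 0.48 and 1.44 without p107 alone, and 0.28 and 1.03 without both.

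Spint1, the Kunitz inhibitor of matriptase, fell, and matriptase itself was lower on the p107-/- arrays with differences that did not pass. St14, the gene of matriptase, had z-scores of 1.04 and 1.26 in pRb+/+ skin, 0.83 and 0.42 without pRb alone, -0.84 and -1.3 without p107 alone, and -0.53 and -0.88 without both. The 4 p107-/- arrays were all below the other 4, the pRb+/+ pair was highest, and the mean was lowest without p107 alone. Its differences were -2.22 ± 0.26 for p107 loss where pRb was kept (limma, adjusted p = 0.0735), -1.34 ± 0.26 where pRb was lost (adjusted p = 0.117) and -1.86 ± 0.26 for loss of both (adjusted p = 0.0563), and none passed.

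Spint1, which encodes the matriptase inhibitor HAI-1, had 1.17 and 1.25 in pRb+/+ skin, 0.78 and 0.34 without pRb alone, -0.56 and -0.76 without p107 alone, and -1.08 and -1.14 without both. The 4 pairs did not overlap and descended in that order. Spint1 fell with loss of both by 2.32 ± 0.17 on the z-score scale (limma, adjusted p = 0.0225) and with p107 loss where pRb was lost by 1.67 ± 0.17 (adjusted p = 0.0499), a call at the very edge of the threshold. For p107 loss where pRb was kept the difference was -1.87 ± 0.17 (adjusted p = 0.0605). For p107 loss where pRb was lost the linear model called 2 of 48 members, Spint1 and Serpinb11, against 1.37% of all probe sets (0.548% higher and 0.822% lower). At an unadjusted p below 0.05 there were 15 of 48 (31.2%), against 19.2% of all. Where pRb was kept the model called 0, with 13 at an unadjusted p below 0.05 (27.1%), against 0.42% (0.203% higher and 0.217% lower) and 19.4% of all probe sets. The moderated test called 0 in both, among the members and over all probe sets. The 2 probe sets of Spint2, the gene of HAI-2, disagreed with each other for loss of both, at -1.1 ± 0.77 and 1.27 ± 1.16.

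Cst6 encodes cystatin M/E, an inhibitor of cathepsins and legumain in the granular layer whose loss in mice disturbs cornification. Its means descended in the order of those of Spint1, with 0.94 and 1.32 in pRb+/+ skin, 1 and 0.32 without pRb alone, -0.71 and -0.89 without p107 alone, and -0.87 and -1.1 without both. The 4 p107-/- arrays were again all below the others, with differences of -1.94 ± 0.29 (limma, adjusted p = 0.0924) and -1.64 ± 0.29 (adjusted p = 0.104) for p107 loss with and without pRb and -2.12 ± 0.29 for loss of both (adjusted p = 0.055). St14, Spint1 and Cst6 were the only members of this pattern, 6.25% of 48, which does not exceed the 8.23% of all probe sets with the 4 p107-/- arrays below the other 4. The interaction was under its standard error for Spint1 (0.2 ± 0.25) and Cst6 (0.29 ± 0.41) and was 0.89 ± 0.37 for St14 (adjusted p = 0.434).

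**Figure D4:**
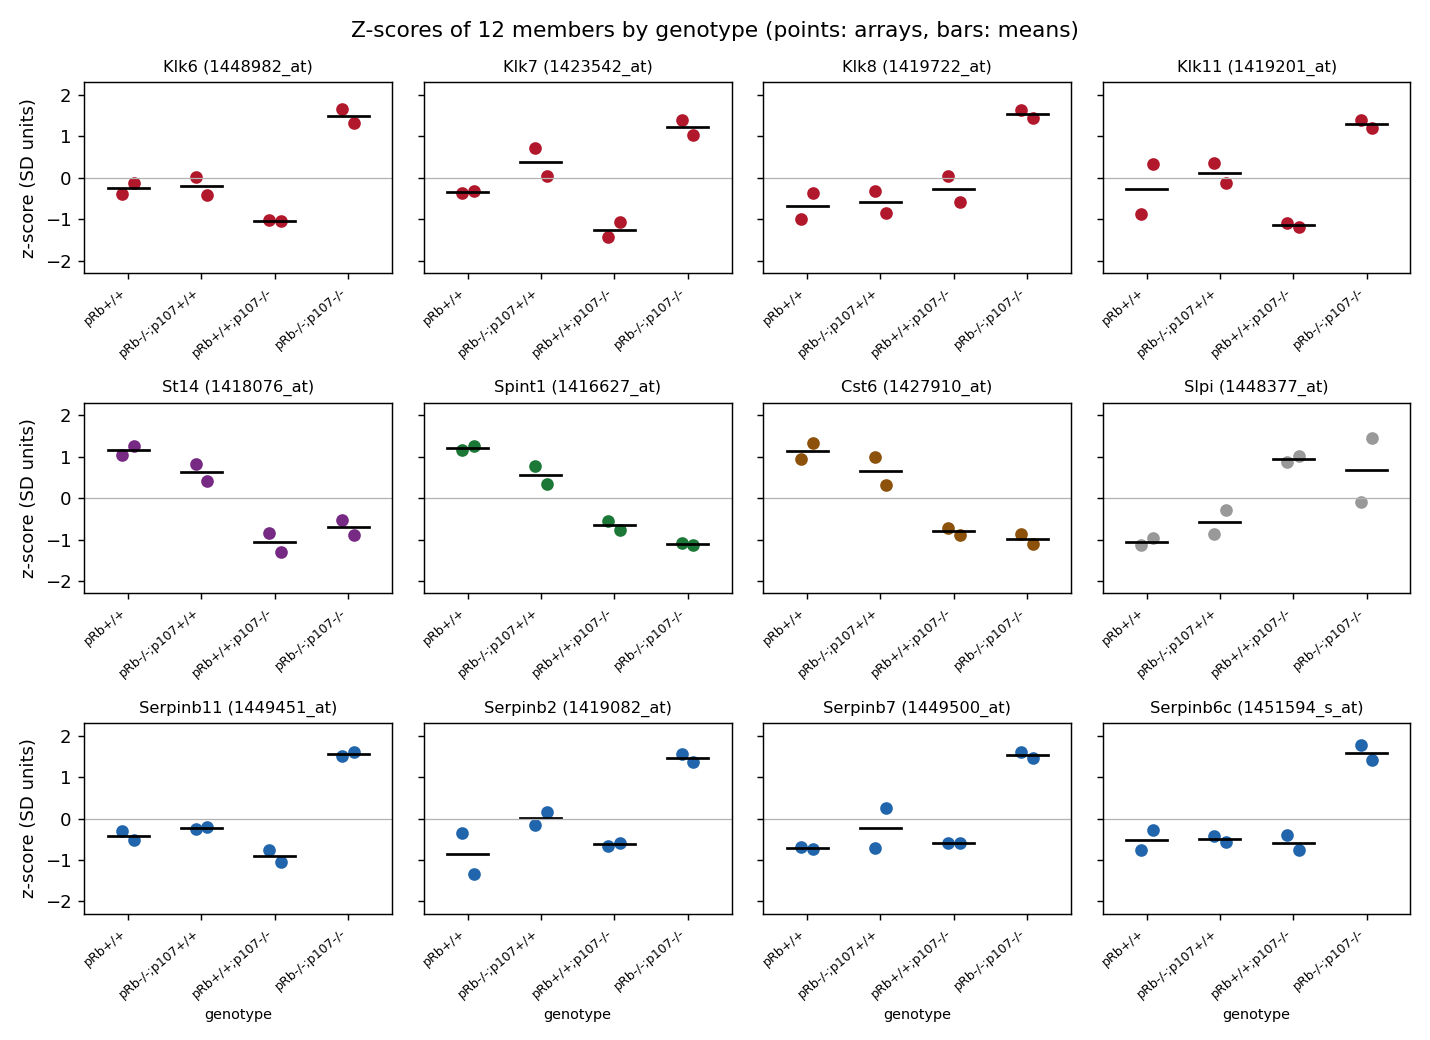
Z-scores (y axis, SD units) of 12 members by genotype (x axis), with a point for each array and a bar at the mean of the 2 arrays. The kallikreins in the top row and the serpins in the bottom row are highest in pRb-/-;p107-/- skin, while St14, Spint1 and Cst6 are low and Slpi is mostly high in both p107-/- genotypes.

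Of the other cystatins, Cstb, the gene of stefin B, had 2 probe sets that agreed in sign for p107 loss but not for loss of both (-0.7 ± 0.28 and 0.91 ± 0.52). The first had 1.24 and 1.14 in pRb+/+ skin, -0.74 and -0.16 without pRb alone, -1 and -1.45 without p107 alone, and 0.62 and 0.35 without both. In this probe set both single losses had lower values than pRb+/+ skin, and the pair without both proteins lay between. The second had -0.26 and 0.8 in pRb+/+ skin, -0.1 and -0.39 without pRb alone, -0.95 and -1.45 without p107 alone, and 1.6 and 0.76 without both, where its mean was highest. The interaction of the first was 3.35 ± 0.39 (limma, adjusted p = 0.122), and that of the second 2.89 ± 0.74 (adjusted p = 0.259). Cst3, the gene of secreted cystatin C, and Stfa3, a stefin of myeloid cells, varied as much between duplicate arrays as between genotypes: the pRb-/-;p107-/- arrays had 0.43 and -1.71 for Cst3, and 1.41 and 0.12 for Stfa3.

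Slpi, a secreted inhibitor of neutrophil elastase made by keratinocytes in wounds, had -1.13 and -0.97 in pRb+/+ skin, -0.87 and -0.28 without pRb alone, 0.87 and 1.01 without p107 alone, and -0.09 and 1.46 without both. The 4 p107-/- arrays were above the other 4, and the difference for p107 loss where pRb was kept was 1.99 ± 0.59 (limma, adjusted p = 0.204). Neutrophil markers (12 probe sets) moved with it in part, with 11 of 12 positive in that comparison and array means of -0.58 and -0.55 in pRb+/+ skin, 0.73 and 0.92 without p107 alone, and -0.24 and 0.36 without both. Their part in the Slpi values was not tested. Among Kazal inhibitors, Spink4 had its highest values in pRb+/+;p107-/- skin (1.57 and 1), with a difference of 2.36 ± 0.57 from pRb+/+ skin (adjusted p = 0.163). Spink1, a trypsin inhibitor, had no separation of genotypes, with 0.35 and -1.8 on the pRb+/+ arrays alone.

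The clade B serpins lie in clusters on mouse chromosomes 1 and 13, and the values are described by cluster. On chromosome 1, all 7 probe sets of 5 genes (Serpinb2, Serpinb5, Serpinb7, Serpinb8 and Serpinb11) had positive differences for loss of both, with a median of 2.12, and in 5 of 7 both pRb-/-;p107-/- arrays were above the other 6. On chromosome 13, 6 of 11 probe sets of 9 genes were positive with a median of 0.43, and in 2 of 11, Serpinb6a and Serpinb6c, both of these arrays were above the other 6. The split by chromosome was made after the values were seen and carries no test.

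Serpinb11, a serpin whose mouse form can inhibit trypsin-like proteases, had the smallest F test p of all members. It had -0.31 and -0.52 in pRb+/+ skin, -0.25 and -0.21 without pRb alone, -0.76 and -1.05 without p107 alone, and 1.5 and 1.6 without both. The pair without both proteins was far above the rest, which lay close together, lowest without p107 alone. Serpinb11 rose with loss of both by 1.97 ± 0.13 (limma, adjusted p = 0.0192), with p107 loss where pRb was lost by 1.78 ± 0.13 (adjusted p = 0.032), and with pRb loss where p107 was lost by 2.46 ± 0.13 (adjusted p = 0.0396). In the last comparison it was the only member called, against 0.256% of all probe sets (0.177% higher and 0.0796% lower). At an unadjusted p below 0.05 that comparison held 15 of 48 members (31.2%), against 12% of all probe sets. Its medians were 0.36 for proteases and 0.31 for inhibitors, beside -0.33 over all probe sets. For p107 loss where pRb was kept the difference of Serpinb11 was -0.49 ± 0.13 (adjusted p = 0.183). The interaction of 2.27 ± 0.19 did not pass (adjusted p = 0.0881). The calls of Serpinb11 in the F test and for p107 loss where pRb was lost were absent after quantile normalization and with array medians subtracted. Its call for pRb loss where p107 was lost was absent with array medians subtracted.

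Serpinb2, also called PAI-2, an inhibitor of urokinase found in differentiating keratinocytes, had -0.36 and -1.34 in pRb+/+ skin, -0.15 and 0.16 without pRb alone, -0.66 and -0.58 without p107 alone, and 1.55 and 1.37 without both. As with Serpinb11, all 4 pRb-/- arrays were above the other 4, which held for 1.97% of all probe sets. Its difference for loss of both was 2.31 ± 0.37 (limma, adjusted p = 0.0693). Serpinb7, a serpin of the upper epidermis whose human counterpart is mutated in a palmoplantar keratoderma, had -0.68 and -0.73 in pRb+/+ skin, -0.72 and 0.26 without pRb alone, -0.59 and -0.6 without p107 alone, and 1.61 and 1.46 without both. It differed by 2.24 ± 0.35 for loss of both (adjusted p = 0.0664). Neither of these serpins separated pRb+/+;p107-/- from pRb+/+ skin clearly, with differences of 0.23 and 0.11 that turned negative under both other scalings (-0.27 and -0.37 after quantile normalization).

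Serpinb8, an inhibitor of furin-like proteases, had -1.06 and -0.23 in pRb+/+ skin, 0.13 and -0.32 without pRb alone, -0.47 and -1 without p107 alone, and 1.76 and 1.19 without both, with a difference of 2.12 ± 0.43 for loss of both (limma, adjusted p = 0.0966). Serpinb5, the gene of maspin, a serpin of basal and differentiating epithelial cells that does not inhibit proteases in the usual way, gave 3 answers from 3 probe sets. The first had -1.59 and -0.57 in pRb+/+ and 1.53 and 1.27 in pRb-/-;p107-/- skin, with -0.38 to -0.01 on the other 4 arrays and a difference of 2.48 ± 0.39 for loss of both (adjusted p = 0.0663). The others differed by 1.06 ± 1.14 and 0.13 ± 0.95, since their duplicate arrays spread widely, from -2.13 to 0.86 on the pRb+/+ arrays in the second.

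Sequences upstream of all 5 chromosome 1 serpins are shown because each had a probe set highest on both pRb-/-;p107-/- arrays, although Serpinb11 alone of them was called, beside those of Klk6 and Spint1, which were called in opposite directions. They are the 250 bases before an annotated start of transcription (RefSeq, GRCm38.p6), found for 33 of the 39 member genes. Upstream means before that start. By the gene coordinates of the same build, Serpinb2, Serpinb8 and Klk6 begin ahead of the end of these bases. Their marked matches, except the first GC box of Klk6, thus lie within the gene. Klk6 has a further listed start that is not shown. Capitals mark matches, on either strand, to a loose spelling of the site of the factor AP-1, TGANTCA, in which N is any base. They also mark a GC box, the binding site of Sp1 and its relatives, spelled GGGCGG. The last motif marked is the TATA box, which can place the start of transcription, spelled TATAAA, or TTTATA where it lies on the other strand. No match overlapped one of another motif.
Serpinb11, chr1:107362064-107362313, + strand: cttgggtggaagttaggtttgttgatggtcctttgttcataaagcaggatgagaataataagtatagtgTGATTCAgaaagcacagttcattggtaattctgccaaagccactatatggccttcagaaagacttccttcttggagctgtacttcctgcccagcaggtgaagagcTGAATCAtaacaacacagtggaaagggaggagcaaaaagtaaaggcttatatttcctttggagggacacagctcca
Serpinb7, chr1:107422439-107422688, + strand: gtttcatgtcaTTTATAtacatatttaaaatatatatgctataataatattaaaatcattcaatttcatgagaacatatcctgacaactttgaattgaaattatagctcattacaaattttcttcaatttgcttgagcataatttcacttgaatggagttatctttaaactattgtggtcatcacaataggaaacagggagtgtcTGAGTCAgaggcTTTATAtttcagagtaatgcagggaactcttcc
Serpinb2, chr1:107511173-107511422, + strand: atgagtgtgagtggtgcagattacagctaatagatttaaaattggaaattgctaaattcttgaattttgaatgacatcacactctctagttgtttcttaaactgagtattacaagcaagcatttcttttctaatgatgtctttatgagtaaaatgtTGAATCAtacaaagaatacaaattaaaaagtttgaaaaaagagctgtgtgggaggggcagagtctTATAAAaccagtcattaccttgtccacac
Serpinb5, chr1:106860925-106861174, + strand: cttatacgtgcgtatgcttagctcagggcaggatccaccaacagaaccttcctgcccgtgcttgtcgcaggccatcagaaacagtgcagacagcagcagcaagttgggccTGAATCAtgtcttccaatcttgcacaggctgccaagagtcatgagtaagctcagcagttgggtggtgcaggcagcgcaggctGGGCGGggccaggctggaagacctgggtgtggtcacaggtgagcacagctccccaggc
Serpinb8, chr1:107589756-107590005, + strand: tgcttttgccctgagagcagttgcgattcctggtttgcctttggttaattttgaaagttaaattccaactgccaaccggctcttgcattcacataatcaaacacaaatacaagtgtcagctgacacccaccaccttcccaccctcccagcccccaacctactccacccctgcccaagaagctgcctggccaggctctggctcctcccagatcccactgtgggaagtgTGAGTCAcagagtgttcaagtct
Klk6, chr7:43824294-43824543, + strand: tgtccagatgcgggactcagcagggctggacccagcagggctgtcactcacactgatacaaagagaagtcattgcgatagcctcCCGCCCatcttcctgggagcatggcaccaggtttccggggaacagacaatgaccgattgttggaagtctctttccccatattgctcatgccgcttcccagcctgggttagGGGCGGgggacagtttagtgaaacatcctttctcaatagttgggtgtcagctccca
Spint1, chr2:119237110-119237359, + strand: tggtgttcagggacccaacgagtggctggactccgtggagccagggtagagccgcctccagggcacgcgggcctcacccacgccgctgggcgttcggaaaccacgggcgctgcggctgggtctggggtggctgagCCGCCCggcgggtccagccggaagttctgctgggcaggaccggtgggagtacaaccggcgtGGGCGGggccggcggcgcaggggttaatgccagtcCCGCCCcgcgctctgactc

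The AP-1 letters occurred upstream of all 5 chromosome 1 serpins and of no other member gene, 5 of 33 (15.2%), where 7.82% of all 27025 genes with such a sequence hold them. Their first base lay 181 and 76 bases before the start of Serpinb11 (TGATTCA and TGAATCA) and 45 before that of Serpinb7 (TGAGTCA). It lay 94 before the first of 2 listed starts of Serpinb2 (TGAATCA), 140 before that of Serpinb5 (TGAATCA) and 23 before that of Serpinb8 (TGAGTCA). Serpinb7 and Serpinb8 alone thus held TGAGTCA, and the other matches rest on letting N be any base. How many of all genes hold TGAGTCA was not counted, and these serpins were grouped after the values were seen. AP-1, a dimer of Jun and Fos proteins, is known to drive genes of keratinocyte differentiation. GC boxes stood upstream of Klk6, Klk7, Klk8 and Spint1 and of 10 of 33 member genes in all, 30.3% against 35.4% of all genes, and thus on both sides of the split between Klk6 and Spint1. The E2F letters TTTCCCGC, TTTGGCGC, TTTCGCGC and TTTGCCGC, searched on both strands, were found upstream of 0 of the 33 and of 2.16% of all genes. The TATA box letters stood upstream of Serpinb2 and Serpinb7 alone, 2 of 33 (6.06%) against 14.3% of all genes. Both matches of Serpinb7 were on the other strand, 239 and 33 bases before its start. A match is a stretch of letters and was not tested as a site.

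On chromosome 13, the member called was Serpinb6c, of the serpin branch that includes inhibitors of granule proteases. It had -0.76 and -0.27 in pRb+/+ skin, -0.41 and -0.56 without pRb alone, -0.4 and -0.76 without p107 alone, and 1.77 and 1.4 without both. The other 3 genotypes overlapped and the pair without both proteins stood alone. It rose by 2.11 ± 0.26 with loss of both (limma, adjusted p = 0.0469). Its probe set is of a class (suffix s) that can match more than 1 transcript, and after quantile normalization the call was lost (adjusted p = 0.055). Serpinb6a had 0.35 and -1.16 in pRb+/+ skin, -0.15 and 0.03 without pRb alone, -0.59 and -1.19 without p107 alone, and 1.18 and 1.54 without both (1.76 ± 0.59 for loss of both, adjusted p = 0.202).

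The remaining serpins of chromosome 13 did not share this pattern. Serpinb1b, a relative of the inhibitor of neutrophil elastase, had -1.28 and -0.31 in pRb+/+ skin, -1.19 and -0.36 without pRb alone, 1.67 and 0.86 without p107 alone, and 0.17 and 0.44 without both, so that the 4 p107-/- arrays were above the other 4. Serpinb1a, the elastase inhibitor itself, had positive differences in both probe sets for p107 loss where pRb was kept (1.98 ± 0.85 and 1.12 ± 0.56) and opposite signs for loss of both (1.22 and -0.86). The 2 probe sets of Serpinb9c disagreed as well, at 1.28 ± 0.68 and -0.47 ± 0.53 for loss of both. Serpinb9, the granzyme B inhibitor, Serpinb9b, Serpinb9g and Serpinb6b had standard errors of 0.93 to 1.29 for loss of both, and none of them passed. Of the 7 genes with several member probe sets, 3 had 1 sign in all of them for loss of both.

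Loss of pRb alone, in pRb-/-;p107+/+ against pRb+/+ skin, called 0 members, as it called 0% of all probe sets. At an unadjusted p below 0.05 there were 4 of 48 (8.33%), against 13.4% of all. The moderated test called 0 members and 0 of all probe sets. These 4 were Spint1 (-0.65 ± 0.17), the first Cstb probe set (-1.64 ± 0.28), 1 Serpinb9c probe set (1.74 ± 0.53) and Klk1b16 (-1.64 ± 0.49). The median was 0.09 for proteases and 0.03 for inhibitors, beside 0.12 over all probe sets. Both the medians and the share below 0.05 were thus at or under those of all probe sets.

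Other genes of the same process were taken from a list of 50 that act beside these proteases in the cornified layer or are their substrates and targets. Of these, 41 were measured, by 52 probe sets. With loss of both 5 probe sets rose and 0 fell (limma), where 1.41% of all probe sets rose and 1.54% fell. The list was drawn up with earlier results of these data known. They measured the desmosomal cadherin gene Dsc1 (2.62 ± 0.17, adjusted p = 0.0188), the envelope protein gene Lor (2.59 ± 0.23, adjusted p = 0.0285, while its other 2 probe sets did not pass), Blmh (2.52 ± 0.22 in 1 of 2 probe sets, adjusted p = 0.0276) and Asprv1 (2.5 ± 0.15, adjusted p = 0.0174). Blmh encodes bleomycin hydrolase and Asprv1 a retroviral-like protease, both of which process filaggrin. The fifth was the cathepsin gene Ctsh (2.13 ± 0.2, adjusted p = 0.0324), named after its value was seen. Its values were -0.65 and -0.51 in pRb+/+ and 1.71 and 1.39 in pRb-/-;p107-/- skin. Asprv1 also rose with p107 loss where pRb was lost (1.92 ± 0.15, adjusted p = 0.0331), and 0 of the 52 passed where pRb was kept, with 14 at an unadjusted p below 0.05 (19.4% of all probe sets). The median of the list for loss of both was 0.52, with 33 of 52 positive, beside 0.1 over all probe sets.

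Some lists of skin cell markers moved with member groups and others did not. Markers of granular keratinocytes (8 of 10 genes measured, 10 probe sets) were positive in 10 of 10 for loss of both, with 2 called. All of these probe sets except that of Hrnr also belong to the list of genes of the same process above. The 2 called are those of Lor and Asprv1 already named there, so the 2 lists are not separate results. The granular array means were -0.72 and -0.82 in pRb+/+ skin, -0.68 and -0.24 without pRb alone, -0.03 and 0.07 without p107 alone, and 1.3 and 1.11 without both. Like Klk6, Klk8 and 5 of the 7 probe sets of the chromosome 1 serpins, the granular markers were highest in the pair without both proteins. Unlike Klk6, Klk7, Klk10 and Klk11, they did not have lower means without p107 alone than in pRb+/+ skin, with 9 of 10 positive. The means of the 6 kallikreins were -0.32 and 0 in pRb+/+ skin, -0.15 and -0.34 without pRb alone, -0.9 and -0.61 without p107 alone, and 1.03 and 1.28 without both. Spinous markers (4 probe sets, among them that of Dsc1 named above) were positive in 4 of 4 for loss of both. Those of basal keratinocytes and lymphocytes were positive in 12 of 16 and 6 of 6. Other lists were mostly negative for loss of both: 12 of 12 probe sets of hair follicle markers were, with 9 called. Their array means were 1.16 and 1.03 in pRb+/+ skin and 0.36 and 0.56 without pRb alone. They were -0.52 and -0.36 without p107 alone, and -1.11 and -1.12 without both. The means of Spint1 and Cst6 descended in the same order. For p107 loss with and without pRb, 12 of 12 were again negative, with 4 and 5 called. Markers of fibroblasts, macrophages, adipocytes, skeletal muscle and sebocytes were negative in 8 of 10, 9 of 12, 5 of 8, 4 of 6 and 2 of 3. Over all probe sets 10790 of 22626 were negative. The adipocyte probe sets measured only 5 genes and the sebocyte ones 2. Neutrophil markers were positive in 9 of 12 for loss of both. In whole skin, more cells of a layer and more RNA per cell cannot be told apart. For the glandular kallikreins, salivary gland markers (4 of 6 genes measured, 5 probe sets) had array means of -0.1 and -1.19 in pRb+/+ skin, -0.56 and -0.47 without pRb alone, 0.73 and 0.38 without p107 alone, and 0.37 and 0.82 without both. Mast cell markers (14 probe sets) were positive in 13 of 14 for loss of both, with 4 called higher and 1 lower. Their array means were -0.72 to -0.49 on the pRb+/+ and pRb-/-;p107+/+ arrays and 0.42 to 0.8 on the p107-/- arrays. The part of any of these markers in the member values was not tested, and z-scores do not show whether a marker is absent.

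**Figure D5:**
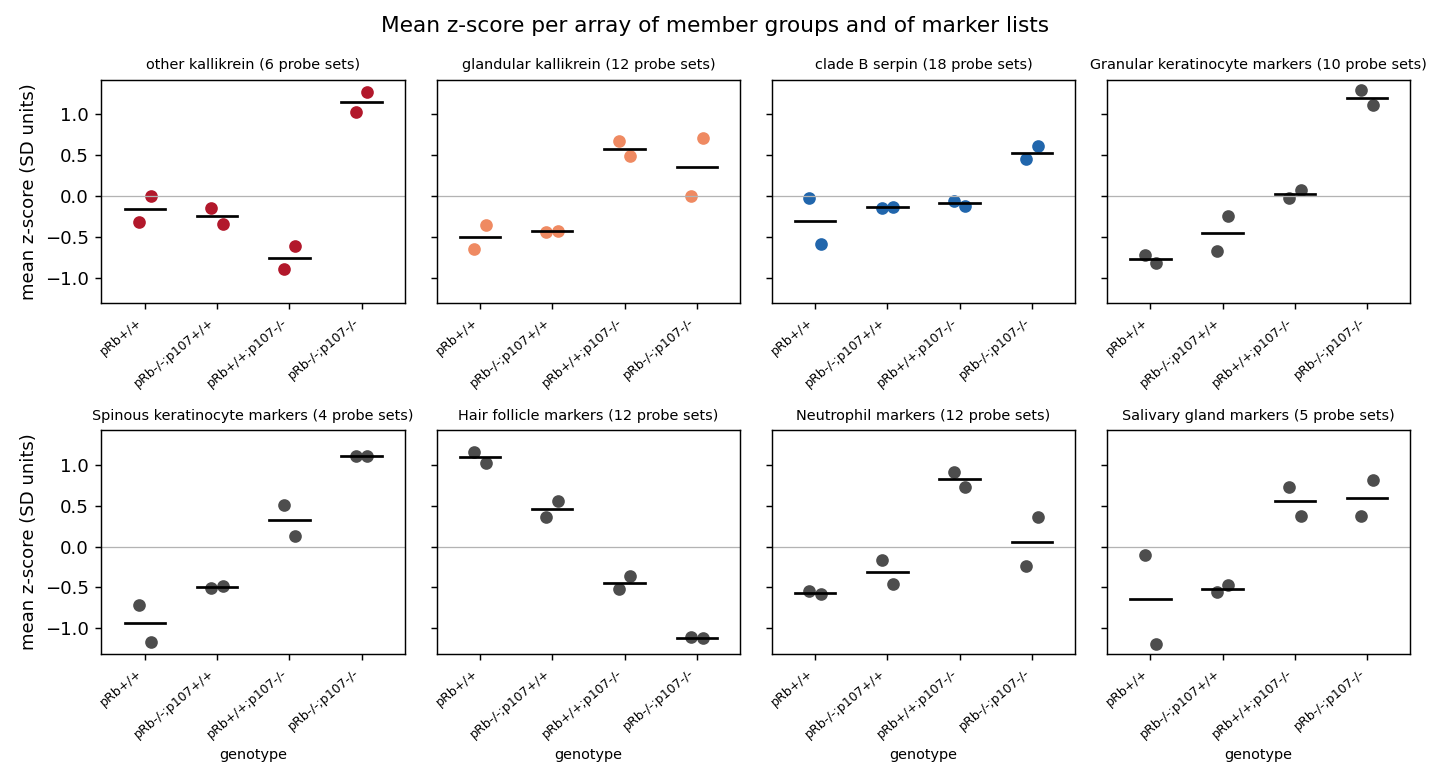
Mean z-score per array (y axis, SD units) of 3 member groups and 5 marker lists by genotype (x axis), with a point for each array and a bar at the mean of the 2 arrays. The kallikreins outside the Klk1 branch (titled other kallikrein) and the granular markers are both highest in pRb-/-;p107-/- skin, whereas the former have lower means without p107 alone than in pRb+/+ skin and the latter higher ones.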

How the data were processed

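Each of the 8 arrays was hybridised with biotin-labelled RNA extracted from 30 mg of newborn skin, per the labels, and RMA was used per the submitters' processing notes, with no version. The deposited value is a score: every probe set has mean 0 and SD 1 over the 8 arrays, so no value can exceed 2.47 in size. Whether log or linear values were standardized is not stated in any source used. The platform annotation gave the gene symbols (1 for 20380 probe sets, several for 691, none for 1555), and all 48 members matched a gene identifier of the GRCm38.p6 gene table. A model with 1 coefficient per genotype was fitted with limma 3.58.1 in R 4.3.3 to 22626 probe sets, leaving out 64 array controls, with 4 residual degrees of freedom. The unmoderated test was used because standardization does not alter it, and the fit was checked on simulated arrays. Members and lists were chosen with earlier results of these data known. Named were every called member, a fixed set of epidermal members, the 3 with the smallest F test p among the other glandular kallikreins, other kallikreins and clade B serpins, and up to 4 called pathway genes in each direction. Further members were named after their values were seen, among them Klk1, Serpinb9, Serpinb9b, Serpinb9g and Serpinb6b. Alternatives were the moderated test, quantile normalization, subtraction of array medians, a replicate block, narrower sets of probe sets and leaving out each array.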

Additional observations from a re-analysis of the deposited data

How the results depend on the processing

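The direction of each called member difference was the same under every alternative in which it was fitted, but the calls were not stable: the adjusted p of Spint1 for loss of both ran from 0.0163 to 0.153, of Serpinb11 from 0.0189 to 0.14, of Serpinb6c from 0.0402 to 0.177 and of Klk6 from 0.0346 to 0.172. Called members numbered 2 among all genotypes, 0 for p107 loss where pRb was kept, 2 where pRb was lost, 1 for pRb loss where p107 was lost and 4 for loss of both. The moderated test and the model with the replicate block each gave 0 in all of these. Over all probe sets they gave 0 and 3 among all genotypes, 0 and 1 for p107 loss where pRb was kept, and 0 and 2 where pRb was lost. The replicate numbers do not pair the arrays, though: deviations of same-numbered arrays correlated at -0.131 to 0.105 between genotypes. For pRb loss where p107 was kept and for the interaction, 0 were called under every alternative. Quantile normalization gave 2 for p107 loss where pRb was kept (Spint1 and Cst6) and 1 where pRb was lost (Spint1, without Serpinb11). It gave 2 for pRb loss where p107 was lost (Klk6 and Serpinb11) and 3 among all genotypes (Spint1, Cst6 and Klk6). With array medians subtracted the counts were 1 among all genotypes (Spint1) and 1 for p107 loss where pRb was kept (Spint1). They were 2 where pRb was lost (Spint1 and Klk6) and 0 for pRb loss where p107 was lost. Loss of both had 7, with Cst6, St14 and Klk8 added. Leaving out an array gave 0 to 2 for loss of both and 0 in each other comparison. Over all probe sets it left 0 to 4 calls of 289 among all genotypes. It left 0 to 2 of 95 for p107 loss where pRb was kept and 0 to 17 of 310 where pRb was lost. These 3 totals were 149, 76 and 171 after quantile normalization, and 97, 52 and 137 with array medians subtracted. Over all probe sets, loss of both was called in 666, in 370 after quantile normalization and in 37 with the block. The share of higher calls moved with the scaling for p107 loss where pRb was kept, from 46 higher and 49 lower to 25 and 51 after quantile normalization and 13 and 39 with array medians subtracted.

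Medians of the groups moved by more than their spread between arrays in some settings. For inhibitors they became -0.39 and -0.37 (from -0.06) for p107 loss where pRb was kept, 0.6 and 0.59 (from 0.31) for pRb loss where p107 was lost, and 0.77 and 0.87 (from 0.41) for the interaction, after quantile normalization and with array medians subtracted. For proteases they became 0.69 and 0.64 (from 0.36) for pRb loss where p107 was lost and 1.09 and 1.25 (from 0.78) for the interaction in the same settings. With array medians subtracted, proteases were at 0.25 for p107 loss where pRb was kept and inhibitors at -0.16 for pRb loss where p107 was kept. With only _at and _a_at probe sets, inhibitors were at 0.35 in the latter, and proteases at 0.29 for p107 loss where pRb was kept, 1.13 where pRb was lost and 0.97 for loss of both. With an array left out, the medians of proteases and inhibitors were -0.08 to 0.3 and -0.29 to 0.32 for loss of pRb with p107 kept, 0.57 to 0.96 and -0.46 to 0.26 for p107 loss where pRb was kept, 0.81 to 1.26 and 0.67 to 1.23 where pRb was lost, 0.27 to 0.72 and 0.2 to 0.75 for pRb loss where p107 was lost, 0.75 to 1.59 and 0.11 to 0.96 for loss of both, and 0.28 to 0.94 and -0.05 to 1.03 for the interaction. The reversed value of -0.05 came without the second pRb-/-;p107+/+ array. The cause was not tested. Proteases highest on both pRb-/-;p107-/- arrays numbered 4, 4 and 5, and inhibitors 7, 8 and 7, in the main analysis, after quantile normalization and with array medians subtracted, a comparison chosen after seeing the data. With 2 arrays a genotype, the number of arrays limits all precision, and signal over background cannot be read from scores.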
